A study of Rattus norvegicus with 8 samples.

Results

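The locus described here lies on the minus strand of rat chromosome 7 between positions 114445792 and 114637525 of the build Rnor_6.0, an interval of 191733 bases. It held 103 of the 51995 circular RNAs (circRNAs) of the deposited table, taken as every minus-strand circRNA whose start and end both fall inside the interval. The locus came to attention because it lists so many circRNAs, so it was chosen by its number of listed circRNAs (RPM above 0), and its rank as the first of 16050 loci is no result. Here circRNAs were joined into a locus when, on the same strand, their start or end positions coincided, and all 103 members belonged to 1 such locus with no member outside the interval. The data were RNA of 8 samples of rat cerebral cortex, 4 after a moderate traumatic brain injury (mTBI) and 4 after a sham procedure, with 1 library each. Tissue was collected 24 h after injury from the injured side, around the lesion in mTBI rats and at the matching site in sham rats. All animals were perfused with cold saline before dissection. The labels used here give neither strain, sex nor age. Nothing in the labels used here ties each sample to its own animal, so the p-values below measure only the spread between these 8 samples, which may be technical.

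A circRNA forms when the spliceosome joins the downstream end of an exon back to the upstream end of the same or an earlier exon, a step called back-splicing. The closed molecule has no free ends for exonucleases to attack, and circRNAs are known to be plentiful in brain tissue, where they are often made from the exons of long neuronal genes. A single gene can yield many circRNAs when the same splice sites are joined in different combinations. The interval was proposed, from its position alone, to be that of Ptk2, the gene of focal adhesion kinase, a tyrosine kinase that relays signals from integrins and growth factor receptors and is known for its role in cell adhesion and in neurite outgrowth. The table names no genes and no annotation of its build was used here, so the gene was not assigned and the circRNAs are called by the table's own names. For the same reason the labelled tissue could not be checked against marker genes.

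The borders of the interval stood clear of other circRNAs. The nearest minus-strand circRNA below the locus, circRNA_44095 from 114352181 to 114358200, ended 87592 bases before it. Its only values above 0 were 0.0516 RPM (sham replicate 4) and 0.0519 RPM (mTBI replicate 4). RPM, the unit of the table, is a number of reads scaled by the authors to library size. The nearest above, circRNA_44201 from 114822070 to 114830566, began 184545 bases beyond and was listed in mTBI replicate 3 only, at 0.0391 RPM. No minus-strand circRNA crossed either border (0 found), and 0 plus-strand circRNAs overlapped the interval. Just inside the lower border, circRNA_44097 from 114445792 to 114457012 was listed in all 8 libraries, at 0.0258 to 0.182 RPM. The upper border rests on a single junction, that of circRNA_44187 from 114550936 to 114637525, which was listed at 0.0257 RPM in mTBI replicate 2 only.

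The 103 circRNAs were built from 29 start positions and 21 end positions. On the minus strand transcription runs from high to low positions, so the end given in the table is the upstream side of the circRNA and the start its downstream side. Of the 292 ways to join one of these starts to an end above it within the longest span of the table (99985 bases), 103 (35.3%) were listed. Of the 29 starts 21 belonged to 2 or more circRNAs, as did 17 of the 21 ends. Since a locus is joined through shared positions, some sharing is fixed in advance. Set against the 50 positions, the 103 circRNAs gave a ratio of 2.06, with each counted once although it uses both a start and an end. This ratio holds the number by which the locus was chosen.

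**Figure D1:**
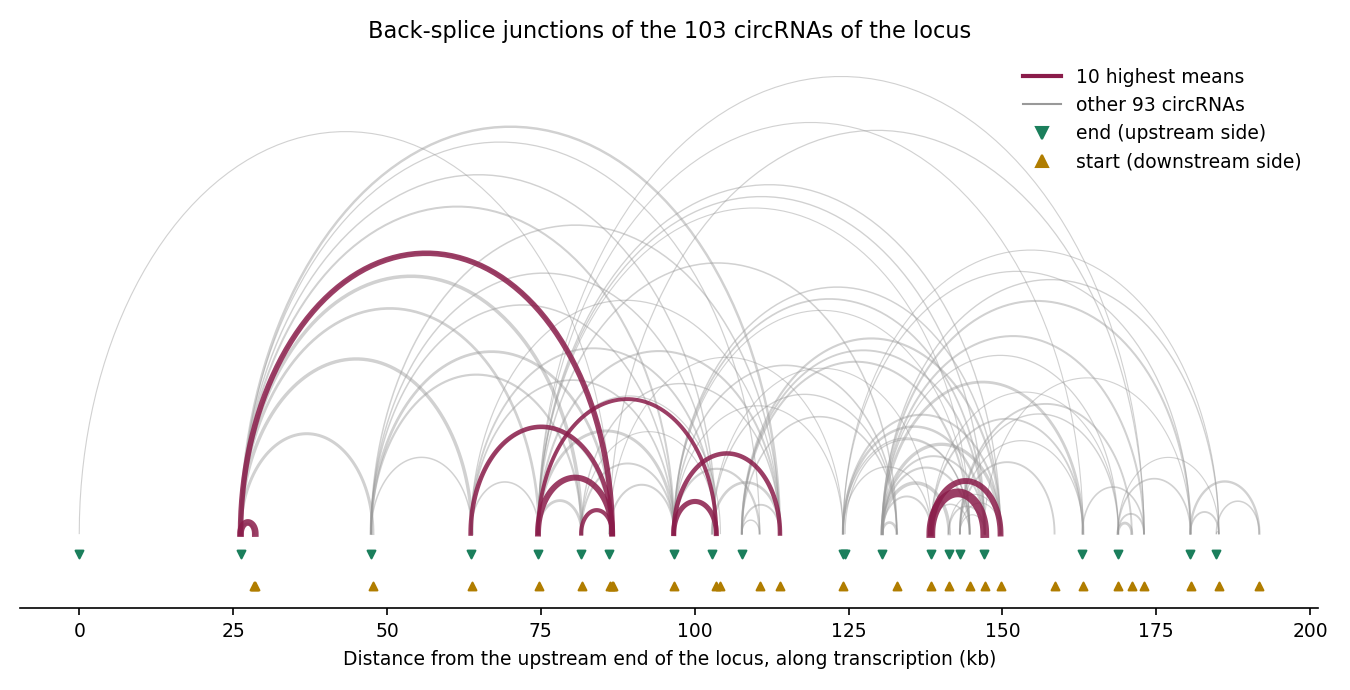
Each arc joins the end and the start of 1 of the 103 circRNAs, drawn along transcription in kb from the upstream end of the locus. The width of an arc grows with the mean RPM over 8 libraries and its height is set by the span alone, triangles mark the 21 ends and 29 starts, and the 10 circRNAs with the highest means, in dark red, carried 67.3% of the RPM of the locus.

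Many of the starts and ends lay close together in pairs. For 13 of the 29 starts an end of another circRNA lay 17 to 313 bases above, with a median of 87 bases, and the next larger distance was 402 bases. Examples were the start at 114540879 with the end at 114540933, 54 bases apart, the start at 114555889 with the end at 114555976, 87 bases apart, and the start at 114589809 with the end at 114590122, 313 bases apart. In such a pair the same short stretch closes one group of circRNAs on its downstream side and opens another group on its upstream side. Of the 13 pairs, 0 were themselves listed as a circRNA. The window of 400 bases used for the pairs fixed this, since the shortest member spans 402 bases. The next pairs, 402 and 452 bases apart, were each listed as a circRNA. Of the 13 pairs, 10 are also shorter than the shortest span of any circRNA listed (137 bases). Whether these stretches are exons was not checked against an annotation.

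Spans within the locus were long. The median span was 25595 bases, beside 12156 bases over the whole table, and the range ran from 402 bases (circRNA_44098, listed at 0.0259 RPM in sham replicate 3 only) to 98461 bases (circRNA_44111, listed at 0.0258 RPM in mTBI replicate 1 only). Of the 10 most abundant members, all but circRNA_44186 and circRNA_44170 (28966 bases) spanned less than the median of the locus. The leading circRNA spanned 8760 bases and the second 2392 bases, and weighted by RPM the mean span was 19307 bases. The 24 members that spanned over 50000 bases made up 11.4% of the RPM of the locus, and most of that came from circRNA_44186, which spans 60381 bases and alone held 6.38%.

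Summed over all members, the locus stood at 14.2, 14.4, 15.1 and 13.4 RPM in sham replicates 1 to 4 and at 13.9, 11.7, 13.7 and 16.4 RPM in mTBI replicates 1 to 4. The 2 extreme values were both from mTBI libraries and the sham values lay between them. With a mean of 14.1 RPM the locus ranked 42 by abundance among the 16050 loci, although first by number of circRNAs. On a reading of each library's lowest listed value as 2 reads, which the steps between values allow, the locus held 909 to 1265 junction reads per library.

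The RPM was spread over several circRNAs rather than held by 1. The leading member made up 17.8% of the locus, the first 5 made up 48.5% and the first 10 made up 67.3%. It took 6 members to reach 50% of the RPM, 19 to reach 80% and 33 to reach 90%. Within single libraries the number needed for 50% was 5 or 6. Among the 37 loci with at least 50 circRNAs the share of the leading circRNA ran from 10.6% to 66.4% with a median of 24.5%, and this locus had the eighth lowest. At the locus second in number, on the plus strand of chromosome 11 with 79 circRNAs, the leading one held 66.4%.

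Most members were rare. Of the 103, 25 were listed in all 8 libraries and carried 84.5% of the RPM. Another 27 appeared in a single library and carried 0.849%. Over all circRNAs 17.5% were listed in all 8 libraries, beside 24.3% of the members, and 39.5% in 1 library only, beside 26.2% of the members. At the 37 loci with at least 50 circRNAs the median share listed in all 8 libraries was 23.1%, near that of the members. The members seen in 1 library did not exceed 0.0782 RPM in it, and they came from all 8 libraries, with 1 to 7 each and the most in sham replicate 3. A mean below 0.05 RPM was found for 64 members, which together made up 7.40% of the locus.

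**Figure D2:**
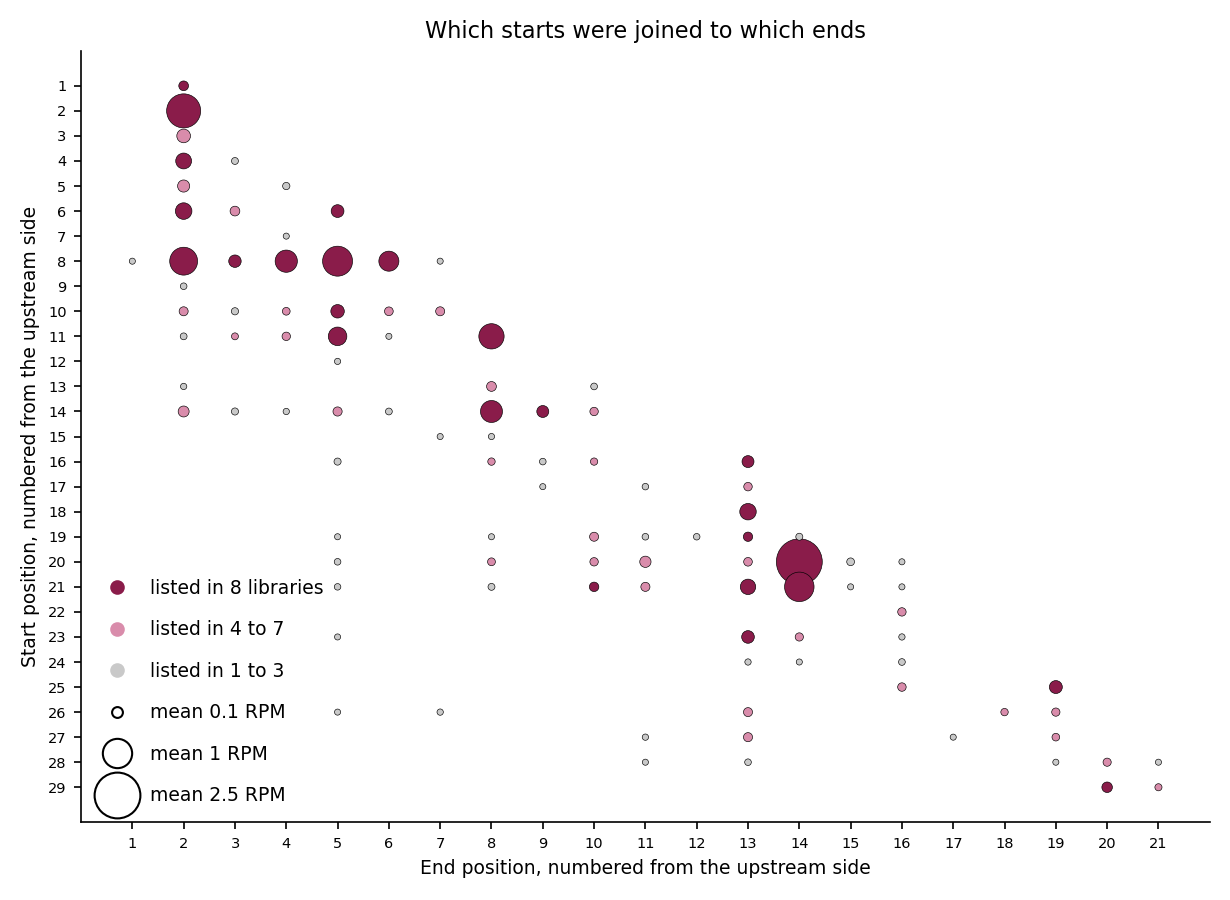
Each dot is 1 of the 103 circRNAs, placed by its end (horizontal axis) and its start (vertical axis), both numbered from the upstream side, with the area growing with the mean RPM and the colour giving the number of libraries that list it. Columns and rows with many dots are the shared ends and starts, such as end 2 (114611317) and end 5 (114562987) with 12 circRNAs each.

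The ends, on the upstream side, were used unevenly. A pair of ends was joined to 12 starts each. The end at 114611317, the more abundant of the 2, carried 24.1% of the RPM of the locus, and its 12 circRNAs reached from circRNA_44198, spanning 2142 bases, to circRNA_44163, spanning 87641 bases. Its most abundant product was circRNA_44197 (1.36 RPM on average), followed by circRNA_44186 (0.900 RPM), circRNA_44191 (0.290 RPM), circRNA_44195 (0.262 RPM) and circRNA_44196 (0.185 RPM). The remaining 7 averaged 0.00643 to 0.136 RPM. The other end with 12 circRNAs, at 114562987, carried 13.3%, of which circRNA_44183 made up 55.9%. An end at 114499158 was joined to only 5 starts but carried the largest share of any end, 25.4%. These 3 ends together held 62.8% of the locus.

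The starts, on the downstream side, showed the same mix of broad and narrow use. Each of 3 starts belonged to 8 circRNAs. The one with the highest RPM, at 114490398, carried 19.8% of the locus, and 89.9% of that came from a single partner, the end at 114499158. Its other leading products were rare, with means of 0.112 RPM for circRNA_44134 (ending at 114513433), 0.0486 RPM for circRNA_44133 (114507068), 0.0438 RPM for circRNA_44135 (114529869) and 0.0323 RPM for circRNA_44136 (114540933). The start at 114550936 was the most abundant of the 29, with 21.98% of the locus over 7 circRNAs, and no partner dominated it. The leading one, circRNA_44183, made up 33.7% of its RPM. By comparison, the start at 114608925 belonged to 1 circRNA only, circRNA_44197, and so held 9.67% of the locus through a single junction.

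The leading member, circRNA_44132, runs from 114490398 to 114499158. It measured 2.74, 2.75, 2.85 and 2.67 RPM across the sham libraries, against 1.90, 2.14, 2.49 and 2.60 RPM across the mTBI ones. It was the most abundant member in each of the 8 libraries, and its 4 mTBI values all lay below its 4 sham values. Sham averaged 2.75 ± 0.0732 RPM and mTBI averaged 2.28 ± 0.322 RPM (SD, n = 4 each). In the fit across all circRNAs limma gave a log2 change of -0.28 with an SE of 0.15 and an adjusted p of 0.973, which does not pass the threshold of 0.05. Fold changes are on the scale of log2(RPM + 0.0259), which understates the change of low circRNAs.

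The second member, circRNA_44197, runs from 114608925 to 114611317 near the upstream side of the locus. It measured 1.19, 1.49, 1.41 and 1.19 RPM across the sham libraries, against 1.14, 1.18, 1.88 and 1.44 RPM across the mTBI ones, and the groups overlapped. The circRNA_44124, from 114487838 to 114499158, shares its end with the leading member. It measured 0.943, 1.10, 1.15 and 1.29 RPM across the sham libraries, against 0.929, 0.643, 1.02 and 1.03 RPM across the mTBI ones, with overlap, and its log2 change was -0.32 (limma adjusted p = 0.973), or -0.17 without mTBI replicate 2. The end at 114499158 that both share was thus lower in every mTBI library than in any sham library, with sham totals of 3.75 to 4.11 RPM and mTBI totals of 2.88 to 3.62 RPM. In a fit across all 14646 ends of the table that were tested, limma gave this total a log2 change of -0.29 with an SE of 0.14 (adjusted p = 0.972). The fits to ends and starts were chosen after seeing the data.

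The start at 114550936 gave 4 of the 10 most abundant circRNAs. Here circRNA_44183, ending at 114562987, measured 0.646, 0.983, 0.996 and 1.21 RPM across the sham libraries, against 0.942, 0.798, 1.003 and 1.79 RPM across the mTBI ones. The longer circRNA_44186, ending at 114611317, measured 0.995, 0.773, 1.26 and 0.632 RPM across the sham libraries, against 1.03, 0.733, 0.795 and 0.986 RPM across the mTBI ones. The groups overlapped for both. The shortest abundant product of this start, circRNA_44182, ending at 114555976, measured 0.401, 0.419, 0.375 and 0.451 RPM across the sham libraries, against 0.348, 0.656, 0.547 and 0.363 RPM across the mTBI ones. Its mTBI values lay on both sides of the sham values.

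A member with the same start, circRNA_44184, ends at 114573932. It measured 0.711, 0.734, 0.634 and 0.696 RPM across the sham libraries, against 0.361, 0.322, 0.404 and 0.597 RPM across the mTBI ones. The 4 mTBI values all lay below the 4 sham values. Sham averaged 0.694 ± 0.0427 RPM and mTBI 0.421 ± 0.122 RPM (SD, n = 4 each), and limma gave a log2 change of -0.72 with an SE of 0.23 (adjusted p = 0.800). The longer circRNA_44185, ending at 114590122, measured 0.258, 0.144, 0.181 and 0.193 RPM across the sham libraries, against 0.0774, 0.141, 0.0912 and 0.0779 RPM across the mTBI ones. It too had no overlap and did not pass (log2 change -0.85, SE 0.37, limma adjusted p = 0.973). The whole start, which includes these members, averaged 3.17 ± 0.194 RPM over sham libraries and 3.03 ± 0.528 RPM over mTBI libraries (SD, n = 4 each). Whether the circRNAs that share this start differed from each other in their change was asked with limma diffSplice over 3921 starts of the table, and this start did not pass (unadjusted p = 0.0384, adjusted p = 0.959).

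The end at 114573932, used by circRNA_44184 and 5 other members, measured 0.788, 0.931, 0.725 and 0.902 RPM across the sham libraries, against 0.361, 0.386, 0.573 and 0.649 RPM across the mTBI ones. These totals did not overlap, but circRNA_44184 supplied 83.9% of the RPM of this end, so this is not a separate result. The log2 change of the total was -0.77 (SE 0.23). Its unadjusted limma p of 0.00177 was the smallest among the tested ends of the locus. The total did not pass over all ends (limma adjusted p = 0.740). Of the locus's 17 ends and 24 starts that could be tested, 0 passed, where 0.0137% of all ends and 0.0137% of all starts did. At an unadjusted p under 0.05 there were 2 ends and 0 starts (limma), with 4.65% and 4.76% over the whole table. The tested totals without overlap were those of the ends at 114499158 and 114573932, lower in mTBI, and of the start at 114464526, higher in mTBI. At the end at 114499158, circRNA_44132 supplied 70.1% of the RPM, so that total too is not a separate result. The share of all ends and starts of the table without overlap was not computed, so these totals have no background and nothing is read from them. The start at 114464526, shared by 5 members, had 0.129, 0.105, 0.0388 and 0.0902 RPM in the sham libraries, and in mTBI it had 0.168, 0.167, 0.208 and 0.143 RPM. Its log2 change was 0.82 with an SE of 0.41 (limma unadjusted p = 0.0555, adjusted p = 0.962).

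**Figure D3:**
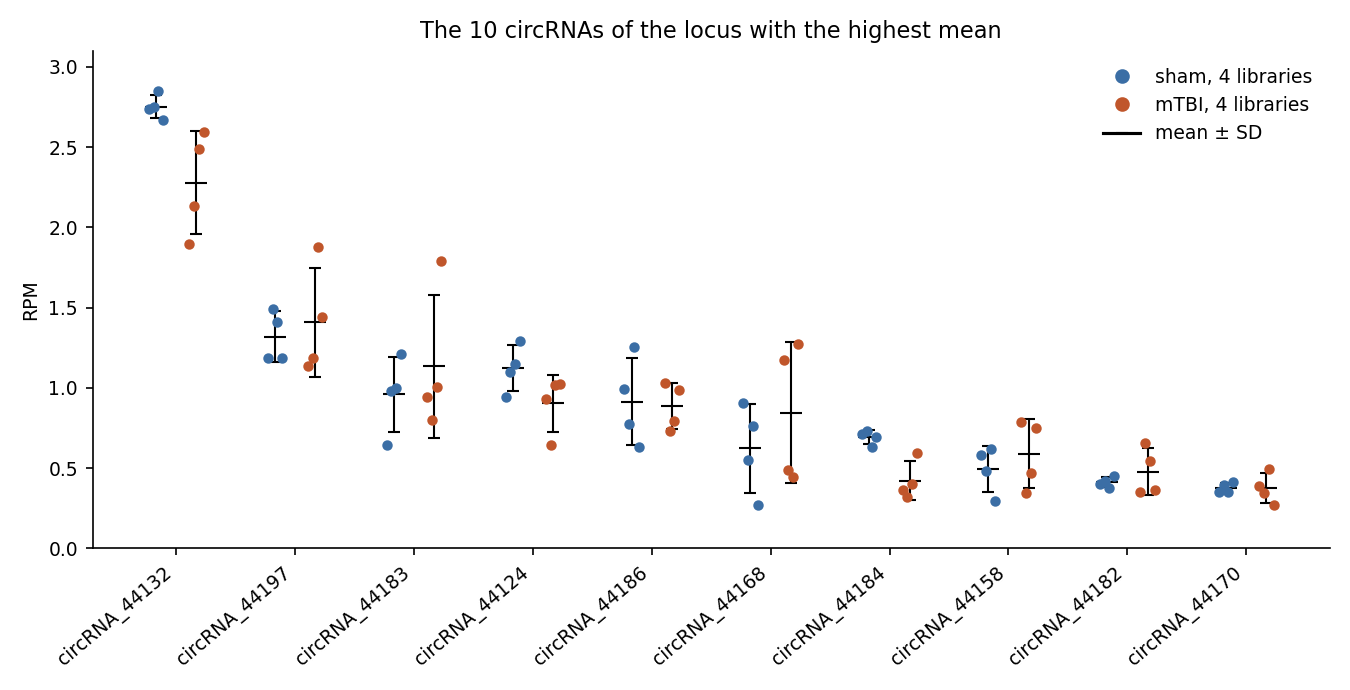
Points are the RPM values of the 4 sham (blue) and 4 mTBI (orange) libraries for the 10 circRNAs with the highest means, with bars for mean ± SD. For circRNA_44132 and circRNA_44184 the mTBI points lie below all sham points, and for the other 8 the groups overlap.

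A pair of members that share the end at 114540933 took a similar order of the libraries, with overlap between the groups. The first, circRNA_44168 from 114534021, measured 0.904, 0.550, 0.763 and 0.271 RPM across the sham libraries, against 1.17, 0.489, 0.443 and 1.27 RPM across the mTBI ones. The second, circRNA_44158 from 114523676, measured 0.581, 0.485, 0.621 and 0.297 RPM across the sham libraries, against 0.787, 0.347, 0.469 and 0.753 RPM across the mTBI ones. Both were lowest in sham replicate 4, followed by mTBI replicates 2 and 3, and both were highest in mTBI replicates 1 and 4. Summed over the 8 circRNAs with this end, sham replicate 4 held 0.606 RPM and mTBI replicate 4 held 2.23 RPM.

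The spread of circRNA_44168 was large for its level. Its SD within groups, as a percent of its mean, was 50.02%, beside a median of 21.0% over the 608 circRNAs of the table within 1.25 times its mean, and larger than in 96.9% of them. The corresponding values were 34.1% for circRNA_44183 (median 18.3% over 434 circRNAs) and 33.8% for circRNA_44158 (median 23.8% over 796 circRNAs). The leading member lay at the other side, with 9.28% beside a median of 13.3% over 169 circRNAs. Counting error alone, on the reading of the smallest value as 2 reads, would give 13.3% for circRNA_44168 and 7.18% for circRNA_44132.

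The libraries did not take the same order for every member. For circRNA_44182 the highest values came from mTBI replicates 2 and 3, then sham replicate 4, and the lowest from mTBI replicates 1 and 4. These are the same 5 libraries as at the extremes of circRNA_44168, in the opposite places. The circRNA_44170, from 114534021 to 114562987, shares a start with circRNA_44168. It measured 0.349, 0.393, 0.349 and 0.413 RPM across the sham libraries, against 0.387, 0.347, 0.495 and 0.272 RPM across the mTBI ones, with its highest value in mTBI replicate 3 and its lowest in mTBI replicate 4. The order of the libraries thus differed between these members with a common start, a case chosen after its values were seen and not tested.

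The first comparison between the groups asked whether any member differed in abundance after injury. Of the 103 members, 57 were listed in at least 4 of 8 libraries and were tested, and the other 46 were too rarely listed. None passed (0 of 57 at a limma adjusted p under 0.05), where 0.0248% of all 20174 circRNAs tested did. The smallest adjusted p of a member was 0.787. At an unadjusted p under 0.05 there were 4 members of 57 (7.02%), where 4.68% of all tested circRNAs lay under it. With limma voom on reads 0 members passed, where 0.0149% of all tested did, and 6 lay under an unadjusted p of 0.05, with a background of 5.21%.

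Along with circRNA_44184 and circRNA_44185, these 4 members were circRNA_44136 and circRNA_44142. The circRNA_44136, from 114490398 to 114540933, was absent from the list (0 RPM) of every sham library, while the mTBI libraries gave 0.103, 0.0515, 0.0261 and 0.0779 RPM, and limma gave an adjusted p of 0.787. On the reading of the smallest value as 2 reads this is 2 to 8 reads per mTBI library. It entered the test only through the mTBI group, where it is high, and without any 1 mTBI library it no longer met the filter. Leaving out circRNAs listed in 1 group alone, 3 of 56 members lay under an unadjusted limma p of 0.05 (5.36%), beside 4.25% of the rest of all tested. The circRNA_44142, from 114492856 to 114529869, measured 0.0904, 0.0786, 0.0518 and 0.129 RPM across the sham libraries, against 0, 0.0643, 0.0391 and 0 RPM across the mTBI ones (limma adjusted p = 0.973). The fifth smallest p belonged to circRNA_44189, from 114555889 to 114562987. It measured 0.0775, 0.157, 0.104 and 0.0902 RPM across the sham libraries, against 0.232, 0.103, 0.182 and 0.298 RPM across the mTBI ones, with overlap (log2 change 0.75, limma adjusted p = 0.973). Of these members with the smallest p, circRNA_44184, circRNA_44185 and circRNA_44142 were lower in mTBI. The circRNA_44189 was higher, and the direction of circRNA_44136 is not counted, since it was listed in the mTBI group alone.

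For 4 of the 57 tested members (7.02%) there was no overlap between the groups, where 2.81% of all tested circRNAs had none. They were circRNA_44132, circRNA_44184 and circRNA_44185, lower in mTBI, and circRNA_44136, higher in mTBI. For circRNA_44136 the filter itself fixed this, since it was listed in the 4 mTBI libraries and in 0 sham libraries. Leaving out circRNAs listed in all libraries of 1 group and in 0 of the other, a count added after seeing the data, 3 of 56 members (5.36%) had no overlap, beside 2.36% of 20081 circRNAs. Of the 4 members, circRNA_44132 and circRNA_44136 share the start at 114490398, and circRNA_44184 and circRNA_44185 share that at 114550936. Whether members that share a start vary together was not tested, so the 4 may not be independent of each other. The excess over the background share was not tested. Of the 57, 36 had a log2 change below 0 and 21 above, with a median of -0.12, beside 10481 below, 9693 above and a median of -0.02 over all tested. A log2 change of at least 0.5 in size was found for 16 of the 57 (28.1%), beside 29.9% of all tested.

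**Figure D4:**
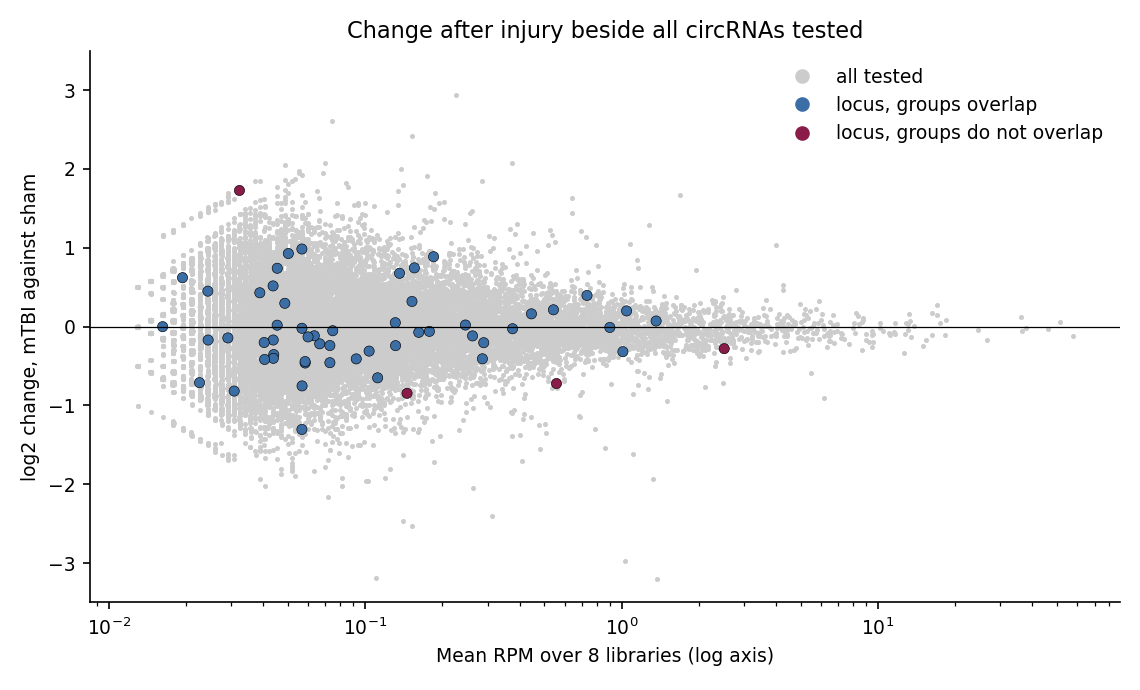
The log2 change between mTBI and sham is plotted against the mean RPM (log axis) for the 57 tested members, over all circRNAs tested in grey, 4 of which lie beyond the vertical range of 3.5. The 4 members in dark red are those without overlap between groups, 3 of them below 0 and 1 above.

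The locus as a whole was compared next. Its total was 14.3 ± 0.698 RPM over sham and 13.9 ± 1.94 RPM over mTBI libraries (SD, n = 4 each). The difference of -0.390 RPM had a p of 0.714 in a two-sided exact permutation test over 70 assignments. In a fit across 7776 locus totals limma gave it a log2 change of -0.05 with an SE of 0.11 (adjusted p = 0.998), where 0.0129% of loci passed. In bulk tissue, fewer cells of a type and less RNA per cell cannot be told apart, and no linear RNA of the locus was measured in this table. As a percent of mean, the total's SD within groups was 10.3%, beside a median of 10.1% over the 37 loci with at least 50 circRNAs.

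The number of members listed above 0 was 57, 56, 59 and 57 in sham and 58, 60, 54 and 63 in mTBI. The means were 57.2 ± 1.26 and 58.8 ± 3.77 (SD, n = 4 each), and the difference of 1.5 had a two-sided exact permutation p of 0.543. Both the fewest and the most came from mTBI libraries. The library with the most members, mTBI replicate 4, also listed the most circRNAs overall (23713), while mTBI replicate 3, with the fewest members, listed 22494.

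The share of the locus held by its leading member was compared as a measure of dominance. The circRNA_44132 made up 19.3%, 19.1%, 18.8% and 19.9% of the locus in sham and 13.7%, 18.3%, 18.2% and 15.8% in mTBI. All 4 mTBI shares lay below the sham shares, and they spread more widely. The means were 19.3% ± 0.448 and 16.5% ± 2.20 (SD, n = 4 each). The difference of -2.77 percentage points had a two-sided exact permutation p of 0.0286, the smallest that this design allows. Adjusted over the 5 such tests made on the locus, the p was 0.0714, which is above the threshold of 0.05. The test of the most shared start, given next, rests largely on the same circRNA and tied with this one, which lowers the adjusted p. Without mTBI replicate 1, which had the lowest share, the difference was -1.83 percentage points.

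The share of the start that most members use, at 114490398, was 21.0%, 21.3%, 20.7% and 21.0% in sham and 16.6%, 20.02%, 19.6% and 18.4% in mTBI. The means differed by -2.33 percentage points (21.0% ± 0.255 in sham, 18.7% ± 1.52 in mTBI, SD, n = 4 each), with a two-sided exact permutation p of 0.0286 (adjusted 0.0714). This is not a separate result, since circRNA_44132 supplies most of the RPM of that start. The share of the end that most members use, at 114611317, was 23.6% ± 3.20 in sham and 24.7% ± 1.94 in mTBI (SD, n = 4 each), with a two-sided exact permutation p of 0.657 (adjusted 0.714). Its values overlapped between the groups, with the lowest in sham replicate 4 (19.7%) and the highest in sham replicate 3 (27.4%).

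**Figure D5:**
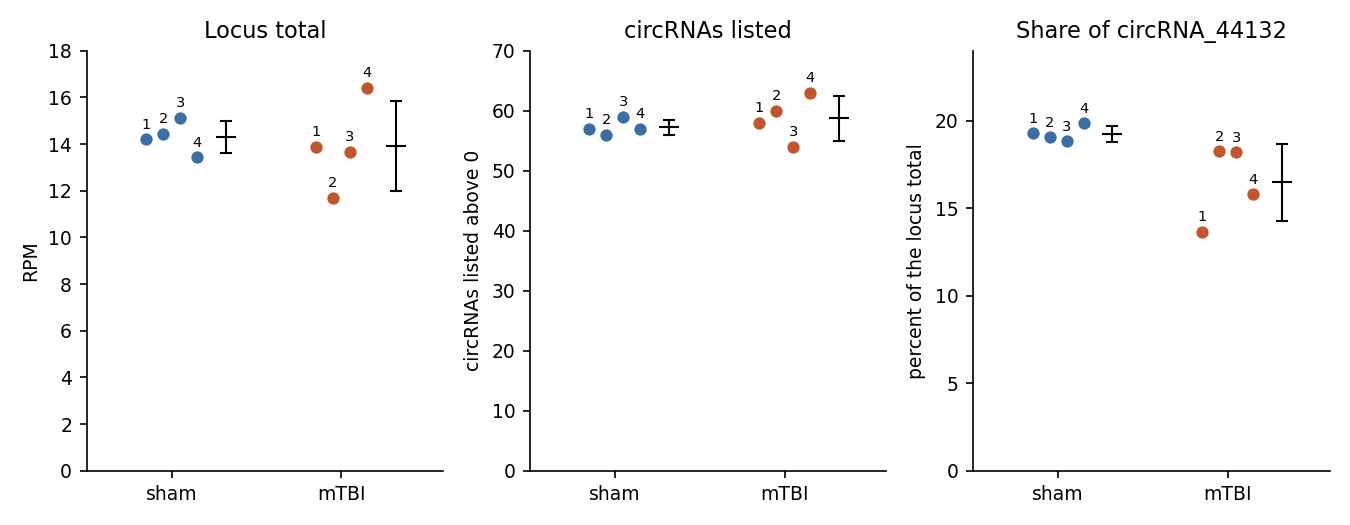
Points are the 8 libraries, numbered by replicate, with bars for mean ± SD, for the locus total in RPM, the number of members listed above 0 and the percent of the total held by circRNA_44132. The first 2 panels overlap between sham and mTBI, and in the third the mTBI points (13.7% to 18.3%) lie below the sham points (18.8% to 19.9%).

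Whether the members changed by different amounts was tested with limma diffSplice over 3289 loci with at least 2 tested circRNAs. The locus, with 57 members in the test, did not pass (unadjusted p = 0.289, adjusted p = 0.9999), where 0.0912% of loci did. Split by shared position, 0 of 14 starts and 0 of 13 ends passed, beside 0.0% of 3921 starts and 0.0254% of 3930 ends over the table. The smallest unadjusted diffSplice p among them, 0.0245, belonged to the start at 114490398 (adjusted p = 0.937). That start includes circRNA_44136, which entered the test only through the mTBI group, so no unequal change is read from this p.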

How the data were processed

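Total RNA from 8 cortex samples (4 sham, 4 mTBI) was sequenced after ribosomal RNA removal, with a stranded kit, per the labels' protocols. The authors deposited RPM values for circRNAs, 1 column per library. Per the submitters' processing notes, Trimmomatic 0.36, DESeq and Rnor_6.0 were used. An aligner or circRNA caller was not given in the sources used here. Each listed value divided by 0.5 of its library's smallest value gave a whole number (tolerance 0.01 read), so the smallest may be 2 reads (denominators of 76300000 to 77700000 reads). All read numbers rest on that reading, and circRNAs under 2 reads would then be listed at 0. Libraries held 384910 to 452692 such reads, and replicates differed by more than counting noise (chi-square per degree of freedom 2.87 to 3.64).

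The fit used limma 3.58.1 (R 4.3.3, moderated with an intensity trend) for circRNAs listed above 0 in 4 or more libraries, on log2(RPM + 0.0259), the pseudocount being the median smallest value, with Benjamini-Hochberg adjustment over the whole table at 0.05. Single values per library were compared by exact permutation, and members of a locus with limma diffSplice. Members named in the text were the 10 with the highest mean, the 5 with the smallest p, the leading 5 at the most shared start and at the most shared end, the longest, the shortest and those at the borders. Other members named beside a shared end or start were chosen after their values were seen. Members, lists and tests were chosen with earlier results of these data known. Simulated reads had 100 circRNAs changed 2-fold and 100 changed 4-fold, all averaging at least 0.1 RPM, among 20908 tested. Of the changed circRNAs 54% and 100% were recovered, with the median spread of circRNAs of at least 0.5 RPM given to all. Only 25 of the 57 tested members average at least 0.1 RPM, so these rates do not cover the rest. Alternatives covered the pseudocount, filter, scaling, variance trend, replicate number and left-out libraries. Python 3.11.15, numpy 2.4.6, pandas 2.3.3, scipy 1.17.1 and matplotlib 3.10.9 were used.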

Additional observations from a re-analysis of the deposited data

Results flagged for a closer look

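Among 54 groups of 4 libraries (the totals and shares of the locus and its named circRNAs), 2 had 1 library far from the other 3, where chance flags about 1 in 20. The longest member, circRNA_44111, had 0.0258 RPM in mTBI replicate 1 alone of its group. The shortest, circRNA_44098, had 0.0259 RPM in sham replicate 3 alone of its group. Both values are the smallest that their library lists, and any group in which 3 of 4 libraries are at 0 meets this criterion.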

How the results depend on the processing

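No member passed under any alternative (0 in each), with a smallest limma adjusted p of 0.275 to 0.994 over the settings. Of all circRNAs tested, 5 passed, beside 55 without the filter, 10 with 4 times the pseudocount, 1 without the variance trend and 0 at a mean of at least 0.1 RPM. Unequal change stayed above the threshold throughout (diffSplice adjusted p 0.9989 or higher). The edgeR test was not run, since the deposited RPM values do not establish what 1 read is worth, and the variance trend does not enter diffSplice. Members joined by shared starts or ends were the same 103.

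The share of the leading member differed by -2.70 percentage points among members listed in at least 4 libraries (exact permutation p = 0.0571) and by -3.36 to -1.83 without each library. The share of the most shared start ranged from -2.78 to -1.65. Both missed 0.05 without each sham library (exact permutation p 0.0571 to 0.114), with the difference at -2.91 to -2.56 and -2.44 to -2.23. The total differed by -1.22 to 0.350 RPM and, among all loci, by a log2 change of -0.13 to 0.031, reversed without mTBI replicate 2. The number listed differed by 0.0833 to 3.08, and by -1.0 when 4 times the smallest value was required. The share of the most shared end ranged from -0.27 to 2.30, reversed without sham replicate 4. Log2 changes that crossed 0 without 1 library were -0.074 to 0.16 for circRNA_44197, -0.040 to 0.34 for circRNA_44183, -0.17 to 0.15 for circRNA_44186 (0.013 when scaled to the circRNA sum), -0.0020 to 0.43 for circRNA_44158, -0.16 to 0.11 for circRNA_44170, -0.088 to 0.78 for circRNA_44133, -0.60 to 0.20 for circRNA_44135 and -0.34 to 0.11 for circRNA_44195. The causes were not tested.

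With the replicate number as a block, 0 members and 0 of all circRNAs passed (5 without it). The share differences were -2.77 and -2.33 with an exact sign-flip p of 0.125, the smallest that 4 pairs allow. The labels give no pairing, and same-numbered libraries did not deviate together (correlations -0.01 to 0.0008 over 7547 circRNAs, each best with another number in 4 of 4).

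Of the 103 members, 46 were listed in fewer than 4 libraries and not tested, and the part of depth in this was not tested.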
